A study of Mus musculus with 72 samples.

Results

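The genes described here were 6 matrix metalloproteinases (Mmp2, Mmp3, Mmp9, Mmp12, Mmp13 and Mmp14) and the 4 tissue inhibitors of metalloproteinases (Timp1, Timp2, Timp3 and Timp4). They were found by their Ensembl identifiers, 1 identifier for each gene, and made up 10 of the 55416 genes of the count table. Levels are given as CPM, counts-per-million values computed from the read counts with TMM library factors, and differences as log2 fold changes (log2FC).

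The study asked how calorie restriction of the dam altered the growth of male and female offspring and their response to a high fat diet. Only males were sequenced. RNA-seq libraries came from the pituitary, the epididymal white adipose tissue (eWAT) and the liver of 24 male mice of the strain FVB.129P2-Pde6b+ Tyrc-ch/AntJ, a sighted FVB line. FED dams ate freely, whereas CR20 dams received 20% fewer calories from embryonic day 15 until weaning at postnatal day 21. From 8 weeks of age the offspring ate a control diet with 10% of calories from fat (FED-CTRL and CR20-CTRL) or a high fat diet with 45% (FED-HFD and CR20-HFD), with 6 mice in each group. The study's text places these RNA samples at 10 weeks of diet. The groups held different mice, and the same mouse gave the 3 tissues. The difference of FED-HFD over FED-CTRL is called the FED diet comparison, and that of CR20-HFD over FED-HFD the HFD maternal comparison. All mice shared the strain, and no transgene is named for it. Per the study's methods, offspring of each dam were allotted blindly to the control or the high fat diet, so diet groups may share litters. Which mice shared a dam or a litter was not given, so the p-values treat every mouse as independent.

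Matrix metalloproteinases are zinc-dependent proteases that cleave collagens, elastin, proteoglycans and many cell surface proteins. Most are made as inactive precursors and become active once a propeptide is removed. The TIMP proteins bind the active site of these enzymes and block it, so that the balance of enzyme and inhibitor sets how fast the matrix is taken apart. In adipose tissue this turnover accompanies growth of the fat depot, and macrophages, stromal cells and adipocytes each make some of the proteins. RNA levels, as measured here, carry no information on whether an enzyme is active.

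Mmp3, Mmp12 and Mmp13 lie in 1 cluster of 10 metalloproteinase genes on chromosome 9 (GRCm39). Mmp13 spanned chr9:7272514-7283331, Mmp12 chr9:7344381-7369499 and Mmp3 chr9:7445822-7455975, all on the plus strand. The other 3 enzymes lie apart, with Mmp2 at chr8:93553902-93580049, Mmp9 at chr2:164780439-164797771 and Mmp14 at chr14:54668878-54682821, also on the plus strand. Timp1 (chrX:20736316-20740976, plus strand), Timp3 (chr10:86136236-86185371, plus strand) and Timp4 (chr6:115187773-115229336, minus strand) each sit inside a synapsin gene, Syn1, Syn3 and Syn2, that runs in the opposite direction. Timp2 (chr11:118191887-118246566, minus strand) contains Cep295nl on its own strand. Whether strand was used in counting was not given in the sources used here, so reads of these overlapping genes may be mixed.

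The promoter windows of 8 of the 10 genes were in the RefSeq table used (GRCm38.p6, the 250 bases before a transcription start), at 9 starts since Mmp12 had 2. They are shown for the 3 genes of the chromosome 9 cluster, which shared 1 motif, and for Mmp14, which did not hold it. Capitals mark the AP-1 letters TGANTCA, searched on both strands, where N is any base, and the TATA box letters TATAAA, also searched on both strands. The matches did not overlap. The windows were chr9:7347124-7347373 for the second start of Mmp12, chr9:7272264-7272513 for Mmp13, chr9:7445572-7445821 for Mmp3 and chr14:54431348-54431597 for Mmp14, all on the plus strand.
Mmp12: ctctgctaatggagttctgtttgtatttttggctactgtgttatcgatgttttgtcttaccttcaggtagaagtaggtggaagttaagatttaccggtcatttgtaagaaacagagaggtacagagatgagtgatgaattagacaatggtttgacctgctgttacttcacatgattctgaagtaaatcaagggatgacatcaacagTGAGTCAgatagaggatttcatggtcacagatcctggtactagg
Mmp13: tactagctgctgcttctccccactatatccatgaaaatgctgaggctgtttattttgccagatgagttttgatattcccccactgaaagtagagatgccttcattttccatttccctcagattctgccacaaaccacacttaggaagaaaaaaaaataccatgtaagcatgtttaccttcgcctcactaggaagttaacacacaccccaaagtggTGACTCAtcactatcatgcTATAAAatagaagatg
Mmp3: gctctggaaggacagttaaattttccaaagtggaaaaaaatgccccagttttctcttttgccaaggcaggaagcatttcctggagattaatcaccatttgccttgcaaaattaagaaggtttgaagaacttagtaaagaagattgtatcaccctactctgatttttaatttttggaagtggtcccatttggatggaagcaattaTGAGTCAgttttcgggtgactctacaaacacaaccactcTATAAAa
Mmp14: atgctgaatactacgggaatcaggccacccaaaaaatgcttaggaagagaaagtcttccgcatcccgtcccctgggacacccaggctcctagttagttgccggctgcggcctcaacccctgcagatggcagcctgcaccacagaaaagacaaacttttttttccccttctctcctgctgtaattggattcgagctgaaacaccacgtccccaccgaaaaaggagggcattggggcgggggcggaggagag
The AP-1 letters stood 44 to 38 bases upstream of the second Mmp12 start, 35 to 29 bases upstream of the Mmp13 start and 46 to 40 bases upstream of the Mmp3 start. No match stood in the windows of Mmp14, Timp1, Timp2, Timp3, Timp4 or the first Mmp12 start. Of 32841 promoter windows of the same length, 6.75% held the AP-1 letters and 12.4% the TATA box letters, which among these genes stood before Mmp3 and Mmp13. The letters describe the windows and do not show that a factor binds there.

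Total counts per library ranged from 11589675 to 22364963 in eWAT, from 9842813 to 19928212 in the liver and from 18299494 to 27601208 in the pituitary, and a count of 3 corresponded to 0.136 to 0.253 CPM in eWAT. The labelled tissues matched their markers, with 4 hepatocyte genes summing to 65264 CPM or more in each liver library and 5 pituitary hormone genes to 231895 CPM or more in each pituitary library. One eWAT library stood apart, that of FED-HFD mouse 23. Its 12 macrophage markers summed to 10064 CPM, against 2314 to 4116 CPM in the other 5 FED-HFD mice, and its 6 adipocyte markers to 5271 CPM, against 13710 to 16259 CPM. Within FED-HFD it had the highest level of Mmp2, Mmp3, Mmp9, Mmp12, Mmp13, Mmp14, Timp1 and Timp2 and the lowest of Timp3 and Timp4, so the eWAT log2FC of the members in both comparisons with that group are given with and without it. In CR20-CTRL, mouse 5 had an adipocyte marker sum of 7386 CPM, against 14396 to 19364 CPM in the other 5 mice. Markers of epididymis and testis, the organs next to the depot, summed to 135 CPM in CR20-CTRL mouse 4, 53.0 CPM in CR20-CTRL mouse 5 and 26.8 CPM in CR20-HFD mouse 6, and to under 1 CPM in the other 21 mice.

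All 10 genes passed the filter on low counts in eWAT, 7 in the pituitary and 5 in the liver. Levels were compared between genes per kilobase of the union of a gene's exons, as the median over 24 libraries. In eWAT the order was Timp2 (88.3 CPM per kb), Timp4 (43.3), Mmp2 (30.7), Timp3 (13.0), Mmp12 (12.8), Mmp14 (6.57), Timp1 (3.57), Mmp9 (0.763), Mmp13 (0.356) and Mmp3 (0.139). The ranges over libraries overlapped in all 9 pairs of neighbours, although Timp2 was above Timp4 in 24 of 24 mice. Timp3 was above Mmp12 in 13 of 24 mice. Of the first 4 genes by level in the fat depot, 3 were inhibitors.

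The pituitary order was Timp2 (29.0 CPM per kb), Timp3 (9.34), Mmp14 (8.25), Timp1 (3.45) and Mmp2 (2.58), and the other 5 genes lay at or below 0.103 CPM per kb. Neighbours did not overlap between Timp2 and Timp3, between Mmp14 and Timp1 and between Mmp2 and Mmp13, and they overlapped in the other 6 of 9 pairs. Liver levels were lower, led by Mmp14 (3.24 CPM per kb), Timp2 (2.34), Timp3 (0.646) and Mmp2 (0.491), and all 9 neighbouring pairs overlapped there. Mmp3 was at 0 counts in 23 of 24 liver libraries and Timp4 in 20 of 24, where a count of 3 corresponded to 0.148 to 0.333 CPM, while Timp4 was the second highest of the 10 genes in eWAT. Timp4 is known for its expression in heart and adipose tissue. In the pituitary, Mmp3 was at 0 counts in 12 libraries, Timp4 in 5 and Mmp12 in 1.

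**Figure D1:**
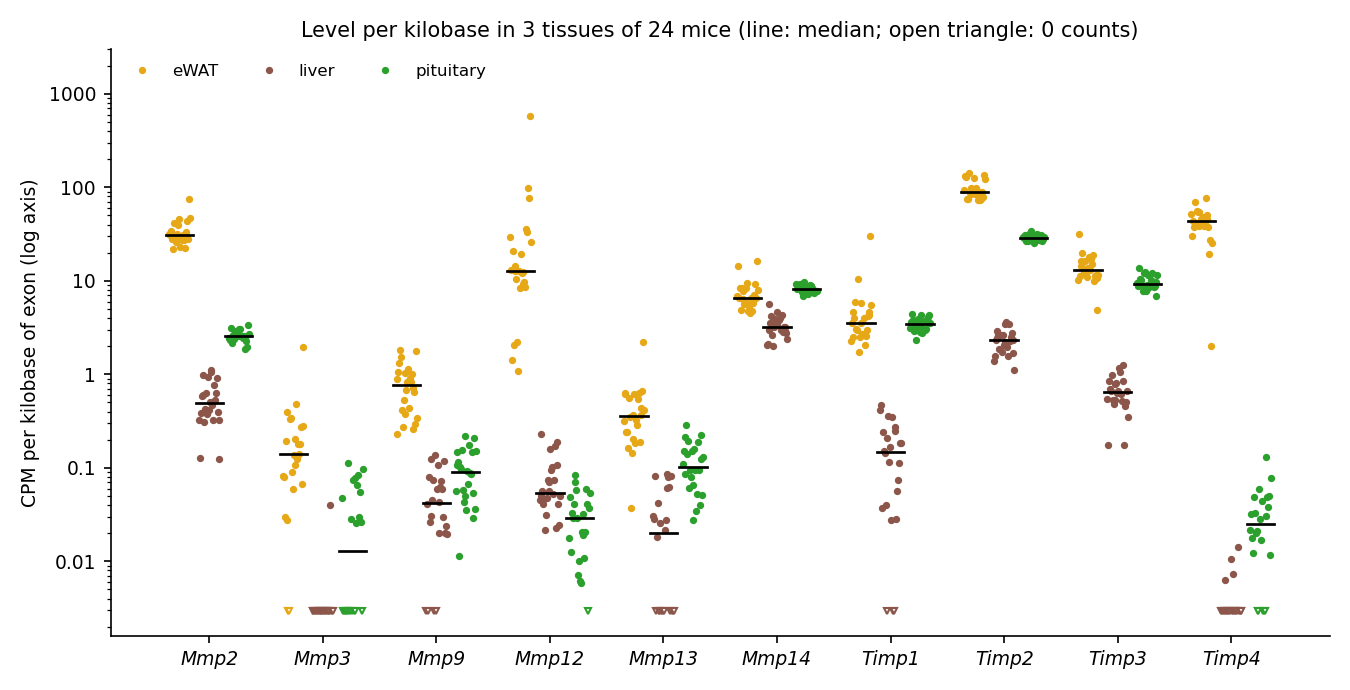
Level of each metalloproteinase and inhibitor in eWAT, liver and pituitary, as CPM per kilobase of exon on a log axis, 1 point for each of the 24 libraries of a tissue. Timp2 stood highest in eWAT and pituitary with medians of 88.3 and 29.0 CPM per kb, and Mmp12 in eWAT ran from 1.08 to 573 CPM per kb.

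Mmp12, the macrophage metalloelastase, ranged from 7.83 to 4149 CPM over the 24 eWAT libraries. The 6 FED-CTRL mice had 62.5, 66.8, 70.3, 86.9, 89.6 and 141 CPM, and the 6 FED-HFD mice 186, 242, 259.6, 561, 709.6 and 4149 CPM. The CR20-CTRL mice had 10.4, 14.8, 92.4, 95.2, 151 and 214 CPM, and the CR20-HFD mice 7.83, 15.9, 60.3, 75.8, 93.2 and 104.5 CPM. Every FED-HFD mouse was thus above every FED-CTRL and every CR20-HFD mouse, whereas the lowest FED-HFD mouse was below the highest CR20-CTRL mouse. The latter was mouse 4, whose library held 135 CPM of epididymis and testis markers. The next CR20-CTRL mouse, at 151 CPM, was below all FED-HFD mice. The part of those markers in this overlap was not tested. The 4 mice under 16 CPM were all born to CR20 dams and came from both diets. They were CR20-CTRL mice 33 and 48 and CR20-HFD mice 31 and 32. Mice 31, 32 and 33 were the only CR20 mice with a number from 20 to below 40. FED mice 23 and 24, in the same range of numbers, were not that low. Whether the numbers mark cohorts was not given, and their part in the low Mmp12 was not tested. The hepatocyte marker sums of the mice under 16 CPM were 561 to 982 CPM, against 3.40 to 758 CPM in the other 20 mice. The genes in this sum did not change together, since Apoa1 and Ttr were called lower and Cyp2e1 higher in the HFD maternal comparison. The part of these markers in the Mmp12 levels was not tested.

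On the high fat diet, offspring of FED dams had more Mmp12 RNA than on the control diet (FED diet comparison, log2FC 3.56, SE 0.81, an 11.8-fold difference, edgeR adjusted p = 0.00745). The exact permutation test over the 924 divisions of the 12 mice gave p = 0.00216, two-sided, the smallest it can give. Without mouse 23 the log2FC was 2.18 (SE 0.64, edgeR adjusted p = 0.0452), and the 11 remaining mice still did not overlap. In bulk tissue, more macrophages and more Mmp12 RNA per macrophage cannot be told apart.

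Offspring of CR20 dams on the high fat diet had less Mmp12 RNA than offspring of FED dams on the same diet (HFD maternal comparison, log2FC -4.10, SE 0.84, a 17.1-fold difference, edgeR adjusted p = 0.0023). The exact permutation test again gave p = 0.00216. Without mouse 23 the log2FC was -2.72 (SE 0.65, edgeR adjusted p = 0.00978). This comparison and the last share the FED-HFD mice, so they are not independent of each other.

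The diet difference itself was compared between the maternal groups by an interaction term, which for Mmp12 was -4.26 (SE 1.09, edgeR adjusted p = 0.0423). Without mouse 23 it was -2.86 (SE 0.87) with an edgeR adjusted p of 0.101, so the call was lost. The call was also lost on leaving out any 1 of 16 other mice, with values from -4.45 to -3.85 and adjusted p of at most 0.0832, and it was kept only without CR20-CTRL mouse 33 or 48, CR20-HFD mouse 6 or 45, or FED-HFD mouse 10, 11 or 40. With limma and quality weights, the test named in the study's methods, the interaction was -2.30 with an adjusted p of 0.203. With the range of the animal number (3 ranges of the numbers in the labels, which may or may not mark cohorts) as a covariate it was -4.10, with an edgeR adjusted p of 0.0669, and the call was lost too. Among offspring of CR20 dams the diets differed by a log2FC of -0.69 (SE 0.75, edgeR adjusted p = 0.951). On the control diet the maternal groups differed by 0.16 (SE 0.74, edgeR adjusted p = 0.993). CR20-HFD and FED-CTRL differed by -0.53 (SE 0.74, edgeR adjusted p = 0.951). None of these 3 differences exceeded the spread between mice, which was wide in both CR20 groups.

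**Figure D2:**
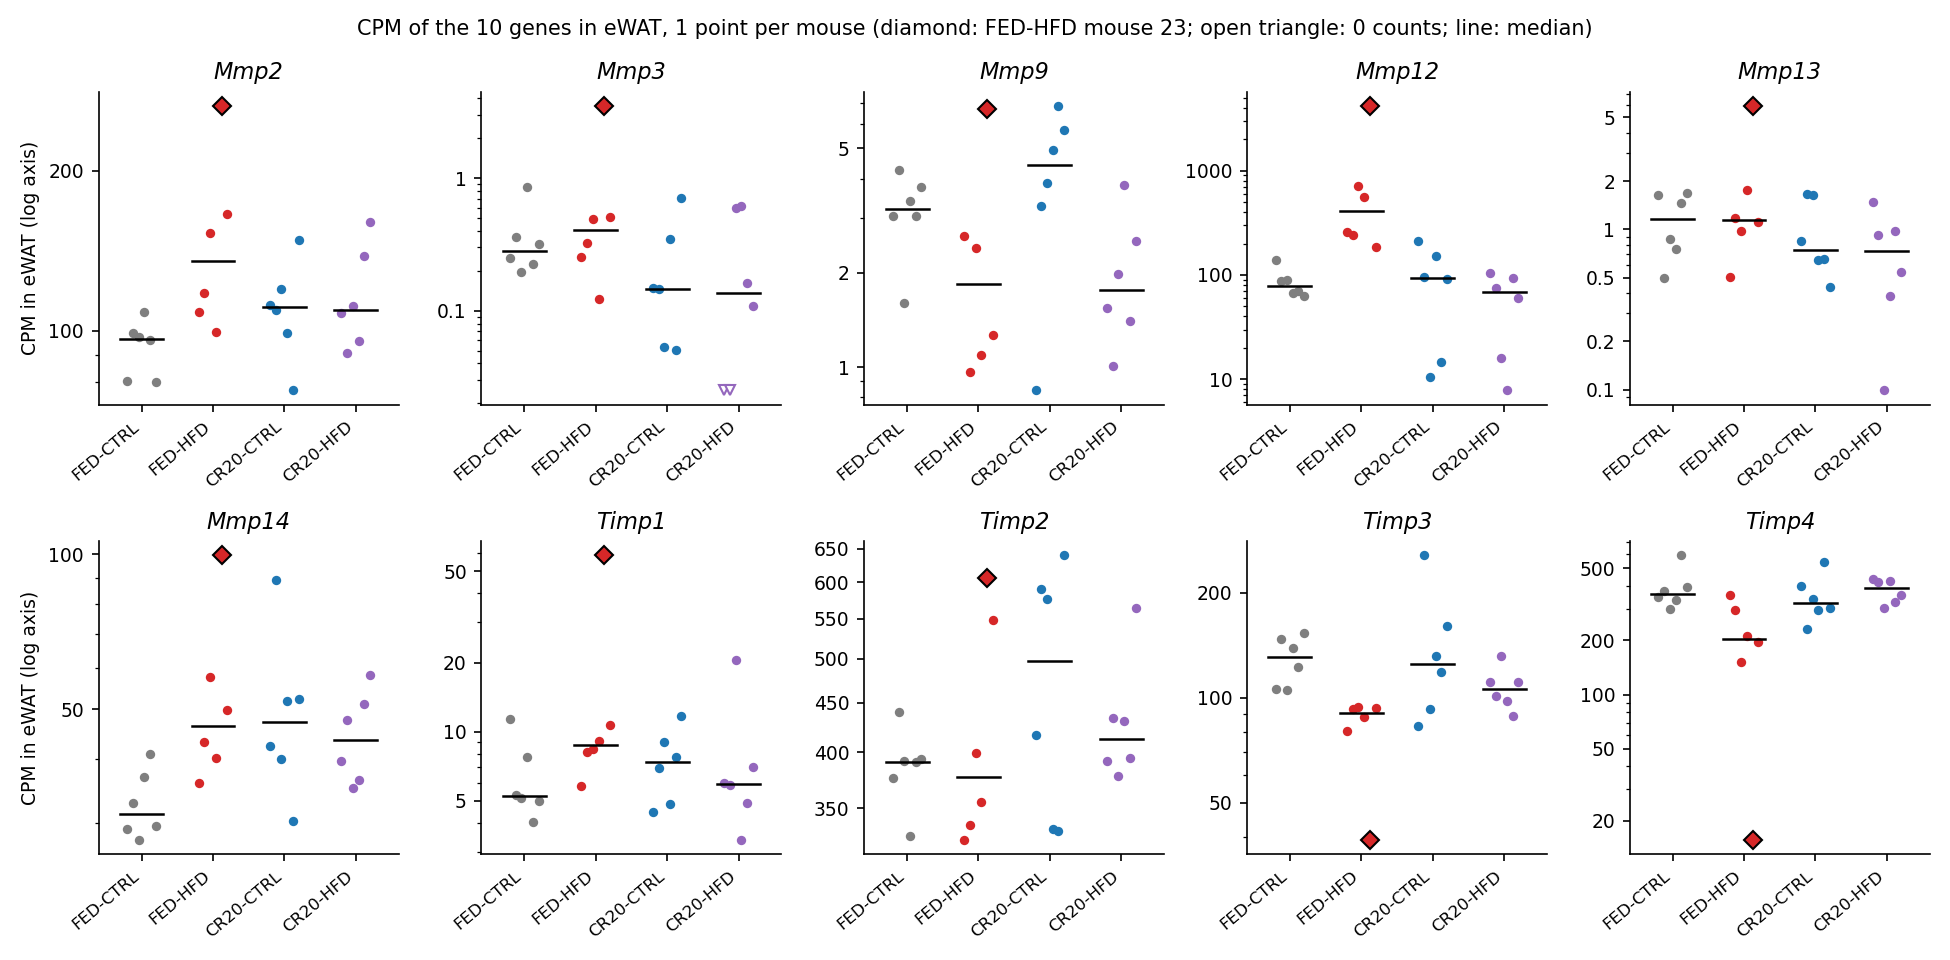
CPM of the 10 genes in eWAT by group on log axes, 1 point for each mouse, with the median of 6 mice as a bar and FED-HFD mouse 23 marked. For Mmp12 the FED-HFD mice sit between 186 and 4149 CPM, above all FED-CTRL mice (62.5 to 141 CPM) and all CR20-HFD mice (7.83 to 104.5 CPM).

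Mmp2 and Mmp14 act together, since Mmp14 is a membrane-anchored protease that activates the Mmp2 precursor and Mmp2 is a gelatinase that cleaves basement membrane collagen. Mmp2 had 80.3, 96.8 and 109 CPM as the lowest, median and highest of 6 FED-CTRL mice, and 99.7, 135 and 265 CPM in FED-HFD. The corresponding values were 77.3, 111 and 148 CPM in CR20-CTRL and 91.0, 109.6 and 160.2 CPM in CR20-HFD. The groups overlapped, although a FED-HFD mouse was higher than a FED-CTRL mouse in 34 of 36 pairs. Mmp2 rose in the FED diet comparison (log2FC 0.69, SE 0.20, edgeR adjusted p = 0.0257), and without mouse 23 the value was 0.46 (SE 0.16, adjusted p = 0.107). The call was also lost without FED-CTRL mouse 14 (0.65, adjusted p = 0.0584) or 42 (0.65, adjusted p = 0.065), and with limma and quality weights the value was 0.44, under the minimum of 0.58.

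Mmp14 had a lowest, median and highest level of 27.9, 31.3 and 40.8 CPM in FED-CTRL and of 36.0, 46.5 and 99.4 CPM in FED-HFD. In the CR20 groups these were 30.3, 47.2 and 89.3 CPM on the control diet and 35.2, 43.6 and 58.2 CPM on the high fat diet. FED-CTRL held the lower mice and the other 3 groups overlapped widely. Mmp14 rose in the FED diet comparison (log2FC 0.73, SE 0.23, edgeR adjusted p = 0.0469), and without mouse 23 the value was 0.46 (SE 0.20, adjusted p = 0.203). That call was lost as well without FED-CTRL mouse 14, 15, 16, 24 or 42 or FED-HFD mouse 12, with values from 0.68 to 0.76, and limma with quality weights gave 0.52. On the control diet CR20 and FED offspring differed in Mmp14 by a log2FC of 0.63 (SE 0.23), which had an unadjusted p of 0.0125 and an adjusted p of 0.452 in edgeR. The highest CR20-CTRL value, 89.3 CPM, was that of mouse 5, the mouse with the low adipocyte sum, whose library also held epididymis and testis markers. The interaction for Mmp14 was -0.91 (SE 0.33, edgeR adjusted p = 0.14).

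For the HFD maternal comparison the log2FC was -0.37 (SE 0.20, edgeR adjusted p = 0.213) for Mmp2 and -0.28 (SE 0.23, adjusted p = 0.431) for Mmp14. Without mouse 23 these became -0.13 and -0.017. Neither passed the test.

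The remaining enzymes were low in eWAT. Mmp9, the gelatinase of neutrophils and macrophages, had a lowest, median and highest level of 1.61, 3.21 and 4.26 CPM in FED-CTRL, 0.965, 1.84 and 6.66 CPM in FED-HFD, 0.843, 4.42 and 6.82 CPM in CR20-CTRL and 1.01, 1.76 and 3.82 CPM in CR20-HFD. All 4 groups overlapped. Its log2FC was -0.34 (SE 0.45, edgeR adjusted p = 0.681) in the FED diet comparison and -0.28 (SE 0.46, adjusted p = 0.714) in the HFD maternal comparison. In CR20-HFD vs CR20-CTRL it was -1.04 (SE 0.45), with an unadjusted p of 0.0315 and an adjusted p of 0.82 in edgeR. The 5 neutrophil markers summed to between 0.621 and 7.80 CPM over all eWAT libraries, so few reads came from genes typical of that cell.

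Mmp13 is the main interstitial collagenase of rodents. Its lowest, median and highest levels were 0.499, 1.17 and 1.69 CPM in FED-CTRL, 0.507, 1.15 and 5.88 CPM in FED-HFD, 0.435, 0.748 and 1.67 CPM in CR20-CTRL and 0.0989, 0.733 and 1.48 CPM in CR20-HFD. Apart from mouse 23 the 4 groups covered about the same range. The log2FC of Mmp13 was 0.74 (SE 0.53, edgeR adjusted p = 0.399) in the FED diet comparison and -1.42 (SE 0.55, adjusted p = 0.0839) in the HFD maternal comparison. Without mouse 23 these values became -0.047 and -0.63.

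Mmp3, stromelysin-1, cleaves proteoglycans and activates other metalloproteinase precursors. It had 0.195, 0.284 and 0.859 CPM in FED-CTRL and 0.122, 0.407 and 3.49 CPM in FED-HFD as the lowest, median and highest of 6 mice. In CR20-CTRL it had 0.0501, 0.147 and 0.707 CPM, and in CR20-HFD 2 mice were at 0 counts and the median and highest were 0.135 and 0.621 CPM. Most of these values lay near the level of 3 counts. The log2FC of Mmp3 was 1.26 (SE 0.75, edgeR adjusted p = 0.299) in the FED diet comparison, which turned to -0.087 without mouse 23, and -1.72 (SE 0.78, adjusted p = 0.138) in the HFD maternal comparison, which became -0.37 without mouse 23.

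Timp3, the inhibitor held in the matrix, also blocks ADAM proteases that shed cell surface proteins. In FED-CTRL its lowest, median and highest levels were 105, 131 and 153 CPM, and in FED-HFD 39.2, 90.3 and 94.1 CPM. In the CR20 groups they were 82.9, 125 and 255 CPM on the control diet and 88.5, 106 and 131 CPM on the high fat diet. Every FED-HFD mouse was below every FED-CTRL mouse, with or without mouse 23, whose next neighbour had 80.5 CPM. The highest CR20-CTRL value was that of mouse 5, whose library had a low adipocyte marker sum and held epididymis and testis markers. The exact permutation test gave p = 0.00216, while the fit over all genes gave a log2FC of -0.66 (SE 0.22) with an edgeR adjusted p of 0.0566, just outside the threshold of 0.055. Without mouse 23 the log2FC was -0.52 (SE 0.20, adjusted p = 0.137). In the HFD maternal comparison it was 0.39 (SE 0.22, edgeR adjusted p = 0.242), and 33 of 36 pairs had the CR20-HFD mouse higher. Without mouse 23 it was 0.25.

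Timp4, the inhibitor next to Timp2 in level per kilobase in eWAT, ranged from 15.7 to 590.2 CPM. Its lowest, median and highest levels were 297, 363 and 590.2 CPM in FED-CTRL, 15.7, 203 and 358 CPM in FED-HFD, 231, 321 and 540.5 CPM in CR20-CTRL and 302, 388 and 438 CPM in CR20-HFD. The FED-HFD mice lay mostly below the others, and 3 of 36 pairs had the FED-HFD mouse above the FED-CTRL mouse. The log2FC was -0.93 (SE 0.38, edgeR adjusted p = 0.117) in the FED diet comparison and 0.89 (SE 0.38, adjusted p = 0.116) in the HFD maternal comparison, so neither passed. Without mouse 23 they were -0.69 (adjusted p = 0.0706) and 0.65 (adjusted p = 0.07). The permutation tests of these single values gave exact p = 0.013 and exact p = 0.0108. Syn2, which encloses Timp4 on the other strand, had 1.79 to 10.1 CPM in eWAT, and Syn3 around Timp3 had 0.149 to 1.16 CPM.

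Timp1, a secreted inhibitor induced in many inflamed tissues, had a lowest, median and highest level of 4.04, 5.23 and 11.3 CPM in FED-CTRL, 5.83, 8.74 and 58.5 CPM in FED-HFD, 4.46, 7.37 and 11.7 CPM in CR20-CTRL and 3.39, 5.94 and 20.6 CPM in CR20-HFD. All groups overlapped, and the 5 FED-HFD mice other than mouse 23 had at most 10.7 CPM. The log2FC was 1.39 (SE 0.50, edgeR adjusted p = 0.0796) in the FED diet comparison and 0.39 (SE 0.37, adjusted p = 0.647) without mouse 23. In the HFD maternal comparison it was -1.08 (SE 0.50, edgeR adjusted p = 0.149), and -0.077 (adjusted p = 0.925) without mouse 23. Syn1, the neuronal gene around Timp1, was called in both comparisons (log2FC 1.55, SE 0.40, adjusted p = 0.0143, and log2FC -1.83, SE 0.40, adjusted p = 0.00418) at group medians of 0.809 to 1.94 CPM, and no exon bases of the 2 genes overlap. Without mouse 23 Syn1 was called only in the HFD maternal comparison.

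Timp2, which inhibits Mmp2 and at low amounts takes part in its activation by Mmp14, had the highest level of the 10 genes in eWAT per kilobase. Its lowest, median and highest levels were 327, 391 and 440.1 CPM in FED-CTRL, 325, 377 and 607 CPM in FED-HFD, 332, 497 and 639.7 CPM in CR20-CTRL and 378, 413 and 563.8 CPM in CR20-HFD. The 4 groups overlapped. The log2FC was 0.15 (SE 0.17, edgeR adjusted p = 0.634) in the FED diet comparison and 0.01 (SE 0.17, adjusted p = 0.972) in the HFD maternal comparison, and 0.023 and 0.14 without mouse 23.

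A gene was called at an adjusted p under 0.055 and an absolute log2FC of at least 0.58. In the FED diet comparison 3 of the 10 genes were called (Mmp2, Mmp12 and Mmp14, all higher), where 8.01% of the 15964 genes tested were called and 6.42% were called higher. Without mouse 23 only Mmp12 was called, and the calls over all genes fell from 1278 to 656. Only Mmp12 was called without FED-CTRL mouse 14 or FED-CTRL mouse 42 as well, whereas without FED-HFD mouse 10 the count was 5. On leaving out single mice, the calls over all genes ran from 656 to 1545. In the HFD maternal comparison 1 of 10 was called (Mmp12, lower), which is near the 9.73% of all genes called, while 7.29% of all genes were called lower. Without mouse 23 Mmp12 was still called there, and the calls over all genes fell from 1554 to 861. The interaction called 1 of 10 (Mmp12), where 2.42% of all genes were called and 2.34% were lower. Groups did not overlap for 2 genes in the FED diet comparison (Mmp12 and Timp3) and for 1 in the HFD maternal comparison (Mmp12), where 6.76% and 6.66% of all genes tested did not overlap. The median log2FC of the 10 genes was 0.71 and -0.33 in these comparisons, beside medians of -0.0016 and 0.02 over all genes tested.

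No member was called in eWAT in CR20-HFD vs CR20-CTRL, CR20-CTRL vs FED-CTRL or CR20-HFD vs FED-CTRL, where edgeR called 0.0% of all genes. At an unadjusted p under 0.05 these comparisons held 962, 1180 and 1119 genes, of which 1 (Mmp9), 1 (Mmp14) and 0 were members. DESeq2 called 1, 150 and 4 genes and limma with quality weights 0, 0 and 59 genes, none of them a member.

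**Figure D3:**
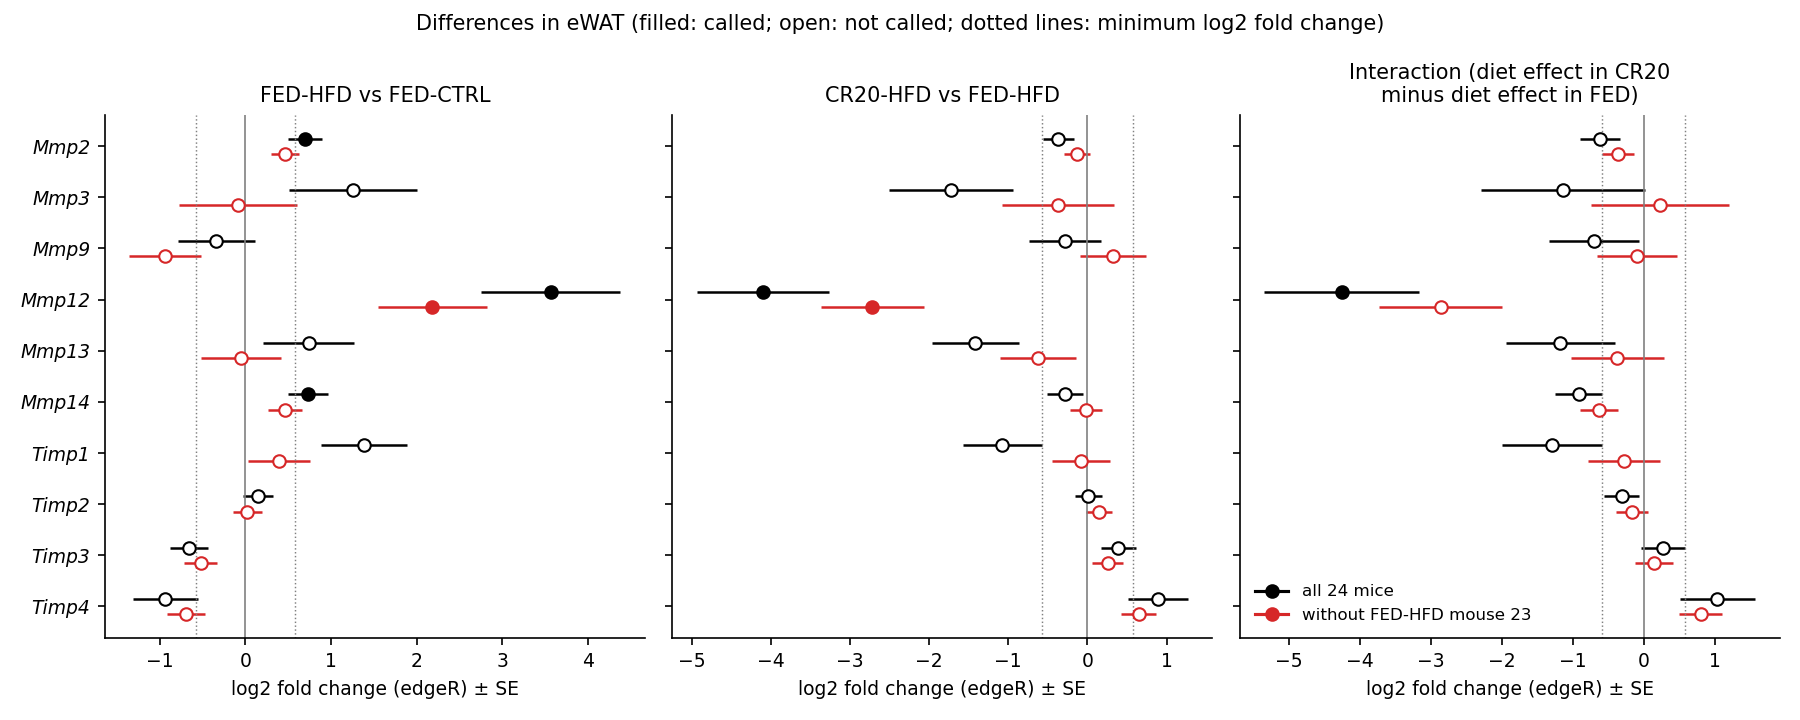
Log2FC of the 10 genes in eWAT for the FED diet comparison, the HFD maternal comparison and the interaction, with bars of 1 SE and called values filled, for all mice and without FED-HFD mouse 23. Mmp12 lies at 3.56 and -4.10 with all mice and at 2.18 and -2.72 without mouse 23, and the values of Mmp3 and Mmp13 in the FED diet comparison fall from 1.26 and 0.74 to -0.087 and -0.047.

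Levels per kilobase were added up in each mouse to set the enzymes beside the inhibitors, as a description with no test. The 4 inhibitors summed to 2.88, 3.36 and 4.22 times the 6 enzymes in FED-CTRL, as the lowest, median and highest mouse, and to 0.258, 1.40 and 2.02 times in FED-HFD (0.822, 1.73 and 2.02 without mouse 23). In CR20-CTRL the ratio was 2.22, 3.23 and 5.26, and in CR20-HFD 2.36, 3.40 and 4.64. Every FED-HFD mouse was below every mouse of the other groups. Mmp12 made up a median of 24.2% of the enzyme sum in FED-CTRL, 56.7% in FED-HFD, 20.7% in CR20-CTRL and 17.0% in CR20-HFD. With Mmp12 left out, the ratio in FED-HFD was 1.78, 3.04 and 3.51, beside 3.57, 4.95 and 5.46 in FED-CTRL, 3.43, 4.10 and 5.63 in CR20-CTRL and 2.98, 4.09 and 4.90 in CR20-HFD. FED-HFD then overlapped with both CR20 groups and did not overlap with FED-CTRL, by 3.51 against 3.57. These sums and shares depend on the length used, here the union of exons. For Mmp12 that is 7237 bases, against 4474 in its longest transcript, and the ratios were not computed with the latter.

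Macrophage genes moved with Mmp12. None of the 12 macrophage markers was at 0 in any group, and their sum was 1625 to 2341 CPM in FED-CTRL, 2314 to 10064 CPM in FED-HFD, 1324 to 2697 CPM in CR20-CTRL and 1390 to 2280 CPM in CR20-HFD. In the FED diet comparison 7 of 12 were called higher (4 without mouse 23), and in the HFD maternal comparison 8 of 12 were called lower (7 without mouse 23). Over all genes tested, 6.42% were called higher in the former and 7.29% lower in the latter with all mice. Without mouse 23 the calls over all genes in either direction fell to 656 and 861. Of 5 genes of lipid-associated macrophages (Trem2, Gpnmb, Cd9, Lpl and Itgax), 4 were called higher and 4 lower in these comparisons, and 3 and 3 without mouse 23. Lpl, also made by adipocytes, was not called. The part of the macrophage content in the Mmp12 differences was not tested.

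Adipocyte markers (6 genes, none at 0) summed to 15498 to 18667 CPM in FED-CTRL, 5271 to 16259 CPM in FED-HFD, 7386 to 19364 CPM in CR20-CTRL and 15546 to 17568 CPM in CR20-HFD. The library of mouse 23 was lowest for these markers and for Timp4 and Timp3, and their part in those 2 results was not tested. The 7 fibroblast markers summed to 1300 to 1562, 1310 to 1759, 1196 to 1692 and 1139 to 1651 CPM in the same order of groups, and the 4 endothelial markers to 284 to 614, 146 to 362, 232 to 686 and 332 to 520.4 CPM. Mesothelial markers, 5 genes of the lining of the depot, summed to 302 to 633, 142 to 722, 133 to 1267 and 49.2 to 721 CPM. Hepatocyte markers, 4 genes with none at 0 in all mice of a group, summed to 60.95 to 258 CPM in FED-CTRL, 3.40 to 758 CPM in FED-HFD, 121 to 944 CPM in CR20-CTRL and 88.2 to 982 CPM in CR20-HFD. The median sums were 160, 59.1, 410 and 173 CPM in the same order. In the FED diet comparison 2 of 4 were called higher (Apoa1, log2FC 6.49, and Ttr, 6.19), and in the HFD maternal comparison the same 2 were called lower (-5.60 and -4.97) and Cyp2e1 higher. The median sum was lowest in FED-HFD, although Apoa1 and Ttr were called higher there. Apoa1 and Ttr, which encode plasma proteins, were called in both without mouse 23 as well. Their part in the Mmp12 differences was not tested. The defining adipocyte genes were thus present in every eWAT library, with other cell types of the depot at variable levels.

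**Figure D4:**
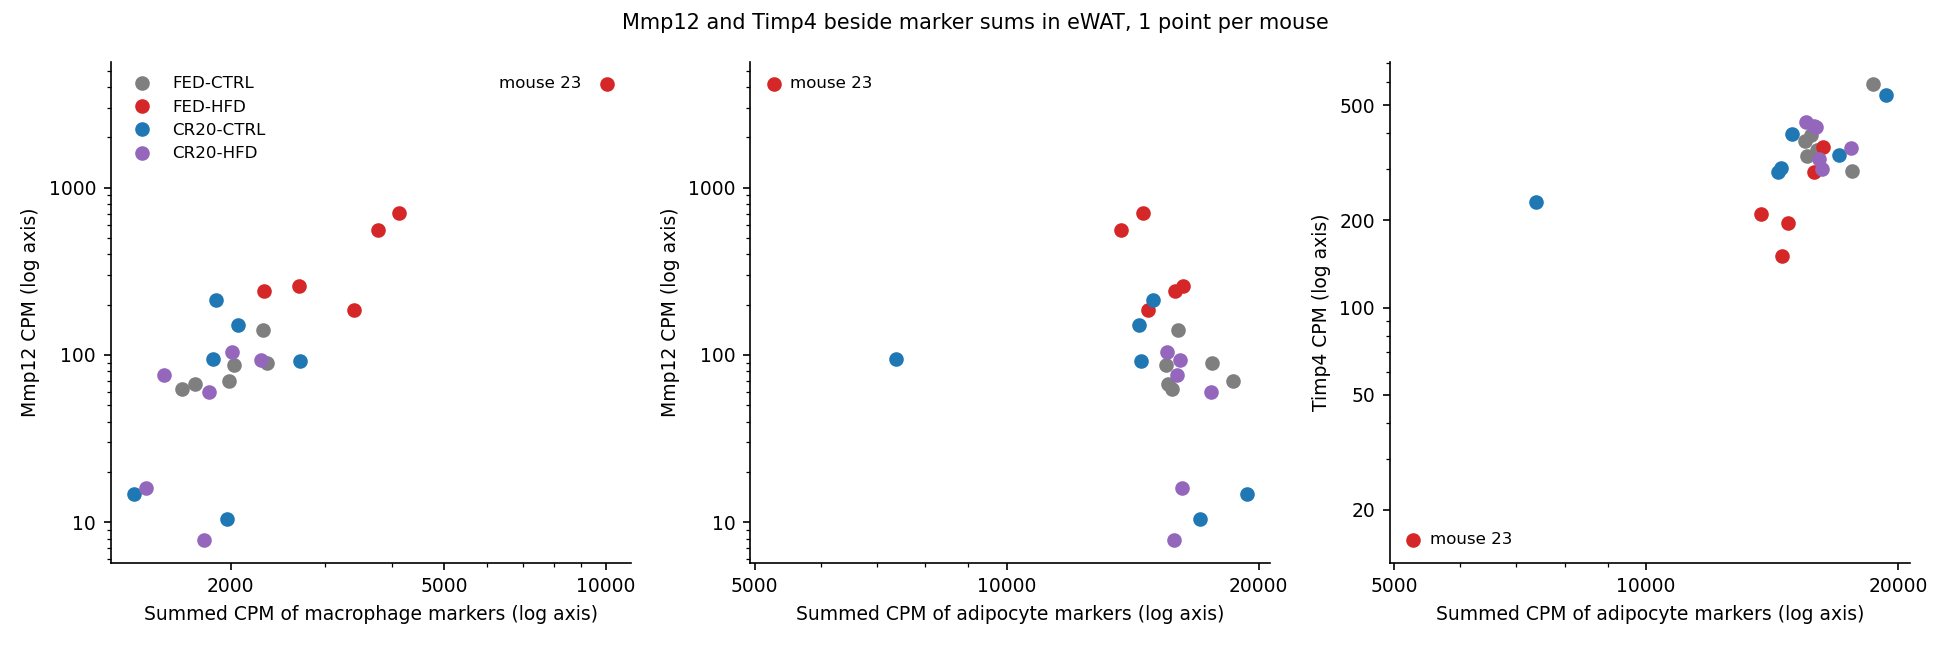
Mmp12 and Timp4 CPM in eWAT against the summed CPM of the macrophage and adipocyte markers on log axes, 1 point for each of 24 mice, coloured by group. Mouse 23 lies apart with 10064 CPM of macrophage markers, 5271 CPM of adipocyte markers, 4149 CPM of Mmp12 and 15.7 CPM of Timp4.

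Over the 24 eWAT libraries, the genes whose log2 CPM ranked most like Mmp12 included Atp6v0d2, a subunit of the lysosomal proton pump (Spearman rho 0.977), and Itgax, an integrin of dendritic cells and macrophages (0.963). Among 13890 protein-coding genes compared, the first gene for Mmp2 was Lum, a collagen-binding proteoglycan (0.85), and for Mmp14 Mdk, a heparin-binding growth factor (0.87). The first was Kdr, the main endothelial VEGF receptor, for Timp3 (0.806), Rarres1 for Timp4 (0.863) and Cilp, a matrix protein, for Timp2 (0.796). The lowest first values were those of St3gal1 for Mmp9 (0.747), Gpr34 for Mmp13 (0.73) and Begain for Timp1 (0.746). Mmp3 ranked most like Hmcn1 (0.816), followed by the B cell gene Cd79b (0.792). Begain, Hmcn1, Cd79b and Cilp were not among the first 3 by Pearson r or after subtracting the group means. Gpr34 was absent there after subtracting the group means, and Rarres1 by Pearson r. Between members, rho was 0.713 for Mmp2 and Mmp14, -0.623 for Mmp2 and Timp4 and -0.579 for Mmp12 and Timp4. These values describe points that share groups, tissue composition and mouse 23. Each first gene has the largest of 13890 values picked from these same data, with no test.

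Among 17 other metalloproteinase genes 9 were tested in eWAT. Mmp19 rose in the FED diet comparison (log2FC 1.26, SE 0.28, edgeR adjusted p = 0.00593) and fell in the HFD maternal comparison (log2FC -1.34, SE 0.28, adjusted p = 0.00255). Mmp11, stromelysin-3, rose by 0.71 and Mmp15, a membrane-type enzyme, changed by -0.82 in the FED diet comparison (adjusted p = 0.0168 and 0.0293). The other 6 were not called, and the calls of Mmp11, Mmp15 and Mmp19 were kept without mouse 23, where Mmp19 had a log2FC of 0.70 and -0.77. Over all genes tested, 8.01% were called in the FED diet comparison and 9.73% in the HFD maternal comparison with all mice.

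Of 14 tested activators, receptors and further inhibitors, 3 rose in the FED diet comparison and the same 3 fell in the HFD maternal comparison. Cd44, a hyaluronan receptor that holds metalloproteinases at the cell surface, had a log2FC of 1.72 (SE 0.29, edgeR adjusted p = 0.00297) and -1.83 (SE 0.29, adjusted p = 0.000601). Plaur, the urokinase receptor, had 1.31 and -1.22, and Lrp1, an uptake receptor for proteases and their inhibitors, 0.68 and -0.65. Without mouse 23 only Cd44 was called in each. Of 15 ADAM and ADAMTS proteases 3 rose and the same 3 fell, Adam8 (log2FC 3.03 and -3.25), Adam12 (1.72 and -1.04) and Adam19 (0.81 and -0.73), and without mouse 23 all 3 were called in the first comparison and Adam8 and Adam19 in the second. Over all genes tested, 6.42% were called higher in the first comparison and 7.29% lower in the second with all mice. The comparisons share the FED-HFD mice.

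None of 20 matrix substrate genes was called in the FED diet comparison. Over all genes tested, 8.01% were called in that comparison and 9.73% in the HFD maternal comparison. In the HFD maternal comparison, Spp1 (osteopontin) was lower (log2FC -2.91, SE 0.74, edgeR adjusted p = 0.0104) and Eln (elastin, the substrate for which Mmp12 is named) higher (log2FC 0.97, SE 0.33, adjusted p = 0.0508). Without mouse 23 neither was called, and the Eln call was lost under 11 of its 21 alternatives that kept the thresholds. The elastin medians were 79.8 CPM in FED-CTRL, 75.8 in FED-HFD, 127 in CR20-CTRL and 145 in CR20-HFD.

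In the liver, Mmp2, Mmp12, Mmp14, Timp2 and Timp3 were tested and edgeR called none of them in any of the 6 comparisons, nor did limma or DESeq2. Over all 13787 genes tested, 0.109% were called in the FED diet comparison, 0.522% in CR20-HFD vs CR20-CTRL, 0.16% in CR20-HFD vs FED-CTRL and 0.0% in the other 3. At an unadjusted p under 0.05 there was 1 member of the 5 in the FED diet comparison, beside 6.66% of all genes, 1 in CR20-HFD vs FED-CTRL, beside 7.25%, and 0 elsewhere. The first was Timp3, with a lowest, median and highest level of 4.19, 7.07 and 10.4 CPM in FED-CTRL and 1.44, 3.95 and 6.95 CPM in FED-HFD (log2FC -0.80, SE 0.33, edgeR adjusted p = 0.614). The second was Mmp12, with 0.377, 0.715 and 1.23 CPM in FED-CTRL and 0.155, 0.374 and 0.542 CPM in CR20-HFD (log2FC -1.11, SE 0.52, edgeR adjusted p = 0.662). Both pairs of groups overlapped. The exact permutation test gave p = 0.039 for Timp3 and p = 0.0195 for Mmp12, without adjustment. Liver Mmp12 had a median of 0.0540 CPM per kb, against 12.8 in eWAT.

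Mmp14, the highest of the 10 in the liver per kilobase, had a lowest, median and highest level of 18.4, 23.4 and 26.7 CPM in FED-CTRL, 14.7, 17.8 and 20.0 CPM in FED-HFD, 12.8, 20.1 and 34.6 CPM in CR20-CTRL and 12.5, 21.1 and 28.4 CPM in CR20-HFD. The 4 groups overlapped. In the FED diet comparison 2 of 36 pairs had the FED-HFD mouse higher, and the exact permutation test gave p = 0.00866, without adjustment, the smallest for a member in the liver, while edgeR gave a log2FC of -0.36 (adjusted p = 0.886). Liver Timp2 ranged from 5.01 to 16.3 CPM and Mmp2 from 0.436 to 3.95 CPM over all groups, also with overlap.

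In the pituitary, 7 members were tested and none was called by edgeR, limma or DESeq2 in the 6 comparisons, where edgeR called 0.0% of the 16657 genes tested. At an unadjusted p under 0.05 there were 0 members in each comparison, beside 1127 to 2887 of all genes. Pituitary Mmp14 ranged from 42.1 to 59.98 CPM over the 24 mice, Timp2 from 114 to 152 CPM and Timp3 from 56.3 to 111 CPM, with medians of the 4 groups that differed by less than their ranges. Timp1 had a log2FC of -0.23 (SE 0.14, edgeR adjusted p = 0.78) and Mmp13 of -0.73 (SE 0.46, adjusted p = 0.752), the former in the HFD maternal comparison and the latter in CR20-HFD vs CR20-CTRL. Syn1, the neuronal gene around Timp1, had 122 to 192 CPM in the pituitary against 4.53 to 8.60 CPM for Timp1 itself, and the part of Syn1 intron reads in that level was not tested.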

How the data were processed

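RNA-seq libraries of 72 samples, 24 for each of pituitary, eWAT and liver, were analysed. Per the labels and the study's methods, the authors trimmed the reads (Trimmomatic, FastQC), aligned them with STAR to GRCm39 and counted them per gene with featureCounts of the Subread package. The versions and the strand setting of the counting are not given in the sources used here. The deposited values were whole-number counts without normalization, used as they are. Gene names came from GENCODE M39, which matched 54749 of 55416 identifiers, and promoter sequences from RefSeq.

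Each tissue was fitted with edgeR 4.0.16 in R 4.3.3, with filterByExpr, TMM, estimateDisp, glmQLFit and glmQLFTest, as 4 group means over 24 libraries. All p-values were two-sided, with Benjamini-Hochberg adjustment over the genes tested in a tissue. A gene was called at an adjusted p under 0.055 and an absolute log2FC of at least 0.58, the thresholds of the study's methods. Log2 CPM used a prior count of 2. The standard error of a log2FC was its size over the root of the F statistic. Single values were also compared by an exact permutation test of the difference in mean log2 CPM, over 924 divisions of 12 mice. That difference is not the edgeR log2FC. limma 3.58.1, DESeq2 1.42.0 and further settings served as alternatives. The fits were tested on simulated data. Depth was 9842813 to 27601208 counts per library, and levels under 3 counts carry no order.

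The members, gene lists and tests were chosen with earlier results of these data known, so the list counts are not independent evidence. Named genes were the 10 members, the called genes of each list in both high fat diet comparisons of eWAT (at most 5 for each list and comparison, by p), the genes most like each member in eWAT, and overlapping genes, of which some are not reported here. The methods name 2 library kits, and the labels leave the weeks of diet at 10 or 16.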

Additional observations from a re-analysis of the deposited data

Results flagged for a closer look

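Of 88 groups of 6 mice examined for a single distant mouse, 9 had one whose gap to the nearest other mouse exceeded Dixon's 95% critical share of the group's range, and chance gives about 1 in 20, or 4.4. In eWAT, FED-HFD mouse 23 was the distant one for 4 genes. It was highest for Mmp3 (gap 0.642 of the range, 3.49 CPM against 0.122 to 0.506 in the others) and for Timp1 (0.737, 58.5 CPM against 5.83 to 10.7). It was lowest for Timp3 (0.82, 39.2 CPM against 80.5 to 94.1) and for Timp4 (0.724, 15.7 CPM against 151 to 358).

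Other single mice stood apart once each in eWAT. Mmp9 was lowest in FED-CTRL mouse 16 (0.646, 1.61 CPM against 3.03 to 4.26) and in CR20-CTRL mouse 4 (0.637, 0.843 CPM against 3.26 to 6.82). Timp2 was highest in CR20-HFD mouse 46 (0.653, 563.8 CPM against 378 to 435). In the liver, CR20-CTRL mouse 5 was highest for Mmp12 (0.835, 1.67 CPM against 0.295 to 0.409) and lowest for Timp3 (0.647, 1.44 CPM against 4.41 to 7.95). The eWAT library of the same mouse was the one with the low adipocyte marker sum.

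The interaction of maternal group and diet was called for Mmp12 in eWAT in the main fit, with a log2FC of -4.26 (edgeR adjusted p = 0.0423). Without mouse 23 it was -2.86 with an edgeR adjusted p of 0.101.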

How the results depend on the processing

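The groups hold different mice, and pairing by dam or litter was not possible because these were not given. Mmp12 was called in the FED diet comparison and the HFD maternal comparison under all 23 alternatives of each, with log2FC of 2.18 to 3.78 and of -4.33 to -2.72. The number of members called in the FED diet comparison was 3, became 1 at an absolute log2FC of at least 1 and was 1 to 5 on leaving out single mice. In the HFD maternal comparison it was 1, became 2 with limma and quality weights, DESeq2 or the animal-number range as a covariate, and was 1 to 3 on leaving out single mice. For the interaction it was 1, became 0 with limma with or without quality weights or with the range covariate, and was 0 to 1 on leaving out single mice, at 0 in 17 of 24.

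The sign turned for some values. On leaving out single mice, Mmp3 ran from -0.087 to 1.68 and Mmp13 from -0.047 to 0.92 in the FED diet comparison, and Mmp9 from -0.56 to 0.32 in the HFD maternal comparison, with the sign turned only without FED-HFD mouse 23. With limma and quality weights, Timp2 was -0.052 in the FED diet comparison, Mmp9 0.19 in the HFD maternal comparison, and Mmp12 0.065 between the diets of CR20 offspring and -0.78 between CR20-CTRL and FED-CTRL. The latter was -0.48 with limma without weights and -0.24 to 0.39 on leaving out single mice, below 0 without CR20-CTRL mouse 4 or 47. Timp2 in the HFD maternal comparison was -0.00043 with DESeq2, -0.00045 with its size factors, -0.0028 with a filter of over 1 CPM, -0.021 with the range covariate, and -0.078 to 0.14 on leaving out single mice, below 0 without CR20-HFD mouse 46 or FED-HFD mouse 10, 11, 12 or 13. Values of single genes were also set beside the alternatives that kept the thresholds. Of 1083 such values, 987 kept direction and side of the threshold, 59 lost the call, 18 gained it and 19 turned. An absolute log2FC of at least 1, and an adjusted p under 0.05 with no minimum log2FC, were not among these alternatives. At the former, Mmp2 and Mmp14 lost the call in the FED diet comparison. Timp3 in the FED diet comparison gained it under 8 alternatives and Mmp14 lost it under 12. The cause was not tested.

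Over all genes in eWAT, 1278 calls in the FED diet comparison became 656 to 1680, 1554 in the HFD maternal comparison became 861 to 2385, 387 in the interaction became 0 to 820, and the 0 calls of CR20-CTRL and of CR20-HFD against FED-CTRL became up to 150 and 59. In the liver, 15, 72 and 22 calls became 4 to 52, 12 to 150 and 11 to 83. In the pituitary, the 0 calls became up to 44 in the FED diet comparison and up to 19 in the HFD maternal comparison. They became up to 118 in CR20-CTRL vs FED-CTRL, the last without FED-CTRL mouse 42. The pituitary interaction stayed at 0 calls. Depth limits Mmp3 in all tissues, Mmp9, Mmp12, Mmp13 and Timp4 outside eWAT and Timp1 in the liver, where levels rest on a few reads.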
